A study of Homo sapiens with 2 samples.

Results

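The genes described here encode the core and regulatory proteins of pre-mRNA splicing: SR proteins and their kinases, heterogeneous nuclear ribonucleoproteins (hnRNPs), proteins of the small nuclear ribonucleoproteins (snRNPs), and the SF3 and 3' splice site factors. They were chosen by name from a list of 53 genes, and a probe set was taken for a gene when the array annotation gave it that symbol and no other. By this rule 52 genes were found with 170 probe sets, of 19775 genes and 54675 probe sets on the array. SRSF2 had no such probe set and was not analysed here, and 13 probe sets that list a member beside other genes were not used. RNA of MM.1S, an established human multiple myeloma cell line, was hybridised to 1 array per group: MM.1S cells cultured with plasmacytoid dendritic cells (pDCs), the dendritic cells known for making type I interferon, and MM.1S cells cultured alone. Both groups are the same line with no other treatment named. The labels do not say how the pDCs were obtained or whether they were removed before RNA extraction. In such bulk RNA, a change in the mix of cells and a change in RNA per cell cannot be told apart. With n = 1 per group no value has a replicate error and no test was possible, so "higher" and "lower" describe these arrays.

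Splicing removes introns in a large machine, the spliceosome, built from snRNPs. Each major snRNP except U6 carries a ring of Sm proteins around its RNA. The U1 snRNP pairs with the 5' splice site, while SF1 and the U2AF pair mark the branch point and the 3' splice site until the U2 snRNP, with its SF3A and SF3B complexes, takes over. SR proteins bind exons and mostly promote their use, under control of the CLK and SRPK kinases, and hnRNPs coat the transcript and often repress splice sites. Several SR and hnRNP genes limit their own level through exons or introns that send the transcript to decay, so that probe sets of one gene can measure different transcript forms. Myeloma cells, like plasma cells, make large amounts of secreted protein.

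Signals are linear MAS5 values. The median signal of each array (115.9 with pDCs, 124.0 alone) served as a floor. The log2 ratio is with pDCs minus alone, with signals under the floor set to it. Where 1 of the signals was under the floor, the ratio is a bound. Each gene is represented by whichever probe set was brightest in mean log2 signal. A probe set is called detected here when both its signals exceeded the floor. Of the 170 probe sets, 129 were detected, 7 exceeded the floor on 1 array and 34 on neither. All 52 representative probe sets were detected. The ratio of 3' to 5' signal of the ACTB control probe sets, a sign of RNA and labelling quality, was 8.09 with pDCs and 19.5 alone, and for GAPDH it was 2.46 and 3.07. The part of this difference in the results below was not tested. Plasma cell markers were present, with all 8 above the floor on both arrays. Of 24 pDC markers, 15 were above the floor with pDCs and 18 alone, with a summed signal of 106646 with pDCs and 71025 alone. Without the 4 brightest (JCHAIN, ITM2C, LAMP5 and TCF4), the sum was 5265 with pDCs and 7545 alone. Of the defining markers, CLEC4C and IL3RA were below the floor on both arrays. NRP1 was below it with pDCs (35.0) and above it alone (146). LILRA4 was above it on both (306 with pDCs and 256 alone). GZMB (174 with pDCs and 604 alone) and PACSIN1 (400.2 with pDCs and 928 alone) were above it too. Of 19 pDC markers above the floor on at least 1 array, 7 had a positive log2 ratio and 12 a negative one. LAMP5 was the 1 at least 2-fold higher (19601 with pDCs and 9053 alone), or 5.26%, against 3.17% of all genes. The 5 at least 2-fold lower were GZMB, PACSIN1, BCL11A, MAP1A and TLR9, or 26.3%, against 4.51%. Of 14 monocyte and lymphocyte markers, 6 were above the floor with pDCs and 7 alone, with summed signals of 1092 and 2039. Among them, LYZ was below the floor with pDCs (17.0) and above it alone (711).

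The hnRNP genes were higher with pDCs as a family, and the snRNP protein genes were mostly slightly lower. Of 15 hnRNP genes, 13 had a positive log2 ratio, with a median of 0.39. Of 11 snRNP protein genes, 8 had a negative one, with a median of -0.16. The medians of both families differed by 0.54 (log2), a gap that depended on the class of probe set, as given below. SR proteins (8 of 11 positive, median 0.02), the kinases (2 of 5 positive, median -0.06) and the SF3 and 3' splice site factors (5 of 10 positive, median -0.0015) had medians near 0. Among all 14407 genes above the floor on at least 1 array, 46.7% had a positive ratio and the median was -0.04. Above the 75th percentile of mean signal, where 46 of the 52 members lie, 47.8% were positive and the median was -0.02. The plot of ratios by family shows 13 hnRNP genes between 0.19 and 1.01 and both others below 0.

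**Figure D1:**
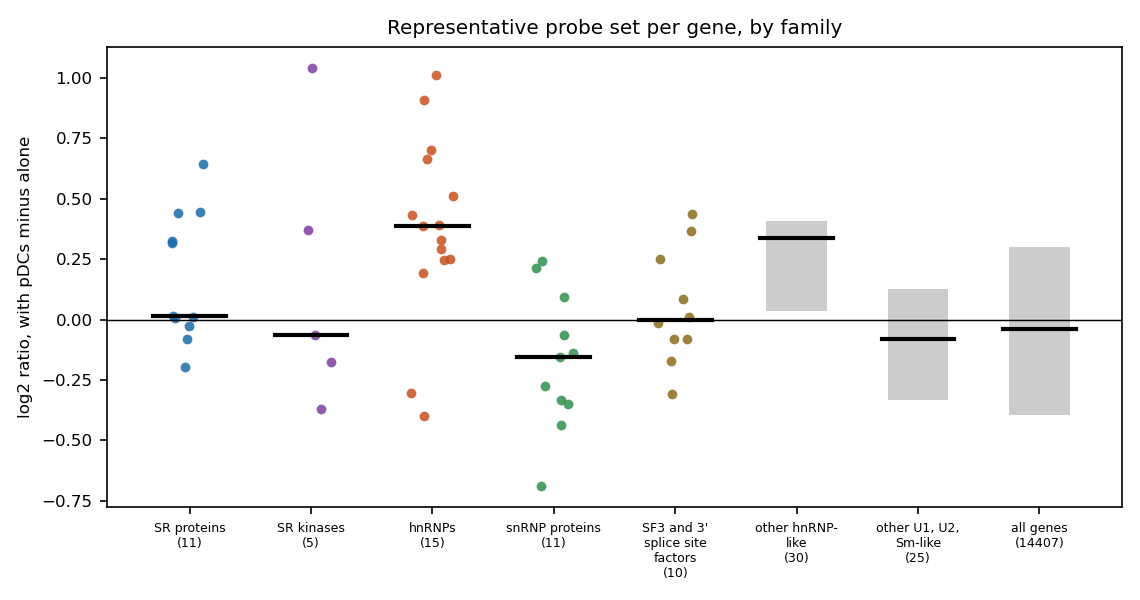
Log2 ratio of signal (with pDCs minus alone, vertical axis) of the representative probe set of each gene, by family, with the number of genes in brackets. Points are genes, black lines are medians, and grey bars span the 25th to the 75th percentile of the genes in 2 wider lists and of all genes; 13 of 15 hnRNP genes lie above 0 and 8 of 11 snRNP protein genes below it.

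Large differences were few. Of the 52 genes, 2 were at least 2-fold higher with pDCs, against 3.17% of all 14407 genes, and 0 were at least 2-fold lower, against 4.51%. The share on the higher side, 3.85%, is near the background. The 2 genes were CLK1, a kinase that phosphorylates SR proteins in the nucleus, and HNRNPL, which binds CA-rich RNA. Above the 75th percentile of mean signal, 0.97% of all genes were at least 2-fold higher and 1.53% lower. Of the 46 members there, 0 were past 2-fold. At 1.5-fold, the shares of all genes there were 6.91% higher and 8.44% lower, against 6.52% and 2.17% of these members. By probe set, 9 of 136 measured on at least 1 array were at least 2-fold higher and 1 was at least 2-fold lower, against 4.19% and 4.67% of 25794 probe sets. At 1.5-fold, 6 of the 52 were higher (11.5%, against 11.5% of all genes) and 1, SNRPC, was lower (1.92%, against 15.3%). The 6 were CLK1, SRSF4 and 4 of the 15 hnRNP genes (HNRNPL, HNRNPF, HNRNPM and PTBP2). Most hnRNP ratios were thus positive and under 1.5-fold, as the plot of signals on both arrays shows.

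**Figure D2:**
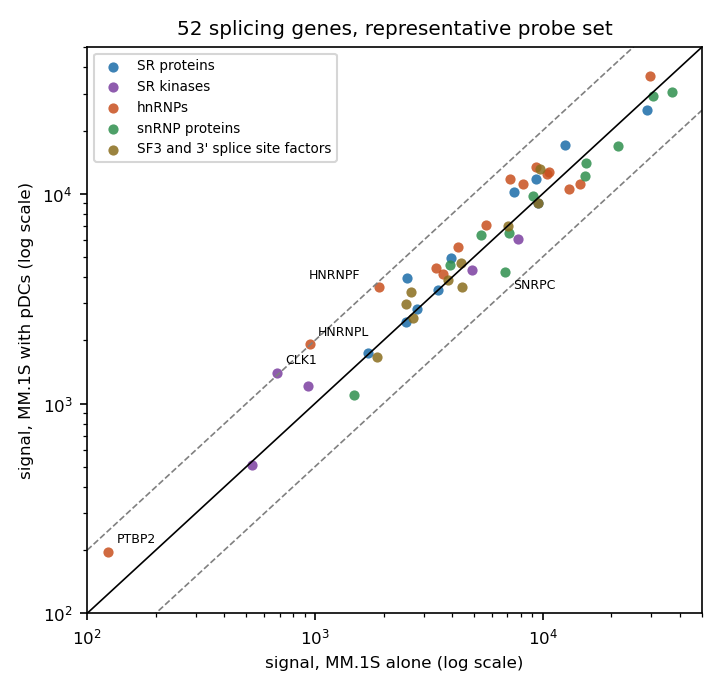
Signal of the representative probe set of 52 splicing genes with pDCs (vertical, log scale) and alone (horizontal, log scale), coloured by family. The solid line marks equal signals and the dashed lines 2-fold; CLK1 and HNRNPL lie just past the upper dashed line and SNRPC lies lowest against the solid line.

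Among the hnRNPs, HNRNPL had a signal of 1915 with pDCs and 949 alone on its representative probe set (2.02-fold), and 572 with pDCs and 488 alone on the other (log2 ratio 0.23). With quantile normalization or loess that probe set fell short of 2-fold (log2 ratios 0.986 and 0.989). HNRNPF, which binds G-rich RNA, had 3590 with pDCs and 1913 alone on its sole probe set (1.88-fold). HNRNPM, a regulator of exon choice, had 11724 with pDCs and 7208 alone on the representative probe set, and 9027 with pDCs and 4712 alone on the next (log2 ratios 0.70 and 0.94). Its dimmer probe sets did not share 1 direction: one had 192 with pDCs and 134 alone, and another 135 with pDCs and 216 alone. A further one, at 17.5 with pDCs and 215 alone, was at least 1.86-fold lower. PTBP2, the neuronal paralogue of the splicing repressor PTBP1, had 197 with pDCs and 124 alone (log2 ratio 0.67), with the signal alone barely above the floor. PTBP1 itself had 7099 with pDCs and 5646 alone (0.33), with a bound of -0.48 on a probe set below the floor with pDCs.

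All detected probe sets were higher with pDCs for HNRNPA2B1, HNRNPA3, HNRNPK, HNRNPL, HNRNPR and HNRNPU, 6 of the 12 hnRNP genes with at least 2 detected probe sets. None of the 12 had all of them lower. Among 4844 genes of the array with as many, 24.9% had all higher and 24.1% all lower. HNRNPU, a nuclear scaffold protein that binds RNA and chromatin, was higher on 4 of 4: 11061 with pDCs and 8195 alone, 9691 and 4831, 2441 and 1899.8, and 1356 and 1171. Its log2 ratios ran from 0.21 to 1.004. HNRNPA3, of the A/B group of hnRNPs that often silence exons, was higher on 3 of 3, with log2 ratios from 0.39 to 0.99. HNRNPR had 2113 with pDCs and 739 alone on one probe set, the highest ratio of any member's probe set (2.86-fold). The HNRNPR probe set with the highest signal had 12369 with pDCs and 10433 alone (1.19-fold), so these probe sets shared a direction but not a size. HNRNPA2B1, which also sorts RNA for export and packaging, had log2 ratios from 0.22 to 0.55 on 3 probe sets. HNRNPK, a poly(C)-binding protein, had 0.25 and 0.04.

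The remaining hnRNP genes were split between their probe sets. HNRNPD (AUF1), a regulator of mRNA decay, was higher on 5 of 6, with 13349 with pDCs and 9357 alone on the representative one and -0.52 on the sixth. HNRNPA1, the best studied exon-silencing hnRNP, had log2 ratios of 0.39, 0.65 and -0.22, and HNRNPA0 had 0.19, 0.13 and -0.27. HNRNPC and HNRNPH1 were the 2 with a negative representative ratio. HNRNPC, which binds U-tracts and keeps cryptic exons out, was lower on 4 of 5 probe sets, with 10552 with pDCs and 13020 alone on the representative one (-0.30). HNRNPH1, a G-tract binder, had 11068 with pDCs and 14577 alone on its representative probe set (-0.40). The next brightest HNRNPH1 probe set went the other way, with 13065 with pDCs and 10399 alone (0.33), and so did a dim one with 472 with pDCs and 208 alone (1.18). Its direction is thus set by the choice of probe set, and the mean over its 3 probe sets was 0.37.

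Proteins of the snRNPs had small ratios, mostly below 0. SNRPC, a U1-specific protein that helps U1 bind the 5' splice site, was lowest, with 4229 with pDCs and 6819 alone (log2 ratio -0.69) on its sole probe set. SNRNP70, the U1-70K protein, had 1100.2 with pDCs and 1487 alone (-0.43). The third U1 protein gene, SNRPA, whose product binds a stem-loop of U1 RNA, had the other sign, with 4560 with pDCs and 3932 alone (0.21). The U2 protein SNRPA1 was lower on 3 of 3 probe sets, at -0.33, -0.55 and -0.18. Genes of the Sm ring proteins did not share 1 direction. SNRPG had 16790.2 with pDCs and 21387 alone (-0.35), and SNRPD2 had 30514 with pDCs and 36939 alone (-0.28). SNRPB, whose product is the SmB protein, had -0.14 and -0.01 on 2 probe sets. SNRPF (0.24) and SNRPD3 (0.09) were positive on 1 probe set each. SNRPD1 had -0.16 on its representative probe set and 0.14 on the other, and SNRPE had -0.06 and 0.17. The representative SNRPE ratio turned positive under quantile normalization and under loess.

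The snRNP result went with the class of probe set. Probe sets of the s_at and x_at classes can bind several transcripts or related genes. Among snRNP protein genes, 8 of 8 such probe sets were lower with pDCs (median -0.26), while of 8 plain probe sets 3 were lower and 5 higher (median 0.12). Without the s_at and x_at classes the family median turned to 0.12 over 8 genes, and the hnRNP median was 0.40 over 12. Over all genes, both classes had medians near 0 (0.01 for s_at and x_at, -0.01 for plain). For hnRNP genes both classes were mostly higher, 20 of 23 with a median of 0.33 and 15 of 21 with a median of 0.39. What each class measures in these genes was not tested.

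SR proteins were higher on their representative probe set in 8 of 11 genes, but their probe sets often parted. Of the 8, SRSF5, SRSF10 and TRA2A were level (0.01, 0.01 and 0.02). All 3 turned negative after loess, which left 5 of 11 positive. Without s_at and x_at probe sets 4 of 9 were positive. SRSF4 was higher on 2 of 2, with 3953 with pDCs and 2531 alone (log2 ratio 0.64) and 228 with pDCs and 172 alone (0.41). SRSF10, which represses splicing when dephosphorylated after heat shock, was higher on 5 of 5, with ratios from 0.01 to 1.02. Its highest ratio came from 1132 with pDCs and 557 alone, while its representative probe set was level at 3493 with pDCs and 3478 alone. SRSF5 had 0.01 and 0.48, with a bound of -0.25 on a probe set below the floor with pDCs. SRSF6 had 0.32 and -0.01. The SR-like proteins TRA2A and TRA2B, which bind GAA-rich exonic enhancers, had ratios from -0.19 to 0.06 on their 4 detected probe sets. SRSF8 was lower on 4 of 4, from -0.42 to -0.0012, so this gene was lower or level.

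In SRSF1, SRSF3 and SRSF7, probe sets of one gene were past 1.5-fold in opposite directions, as they were in HNRNPM. These 4 were 11.1% of the 36 members with 2 or more detected probe sets, against 3.94% of the 4844 genes. Of these members 7 had 5 or more detected probe sets, against 218 of the 4844 genes. In SRSF3, the smallest SR protein and a promoter of mRNA export, the direction parted by signal. Its 3 brightest probe sets were higher with pDCs: 17054 with pDCs and 12545 alone, 9087 and 6122, and 4709 and 3133. The other detected SRSF3 probe sets were lower, at 260.2 with pDCs and 520.3 alone and at 138 with pDCs and 255 alone (log2 ratios -0.9996 and -0.88). SRSF1, also known as ASF/SF2, was likewise higher on 3 probe sets (11766 with pDCs and 9386 alone, 3861 and 2501, 1227 and 823) and lower on 3 (885 and 1024, 429 and 933, 204 and 268). Its probe set with 429 against 933 was the one member probe set at least 2-fold lower. SRSF7 (9G8) had 580.1 with pDCs and 264 alone on one probe set (1.14), 224 and 381 on another (-0.76), and -0.08 and 0.16 on its brighter ones. SRSF11 had 0.45 on its brightest probe set and -0.17 and -0.46 on the others. Across all detected SR probe sets, s_at and x_at ones were higher in 13 of 19 (median 0.32) and plain ones in 8 of 18 (median -0.09). Which transcript forms these probe sets bind was not analysed here.

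**Figure D3:**
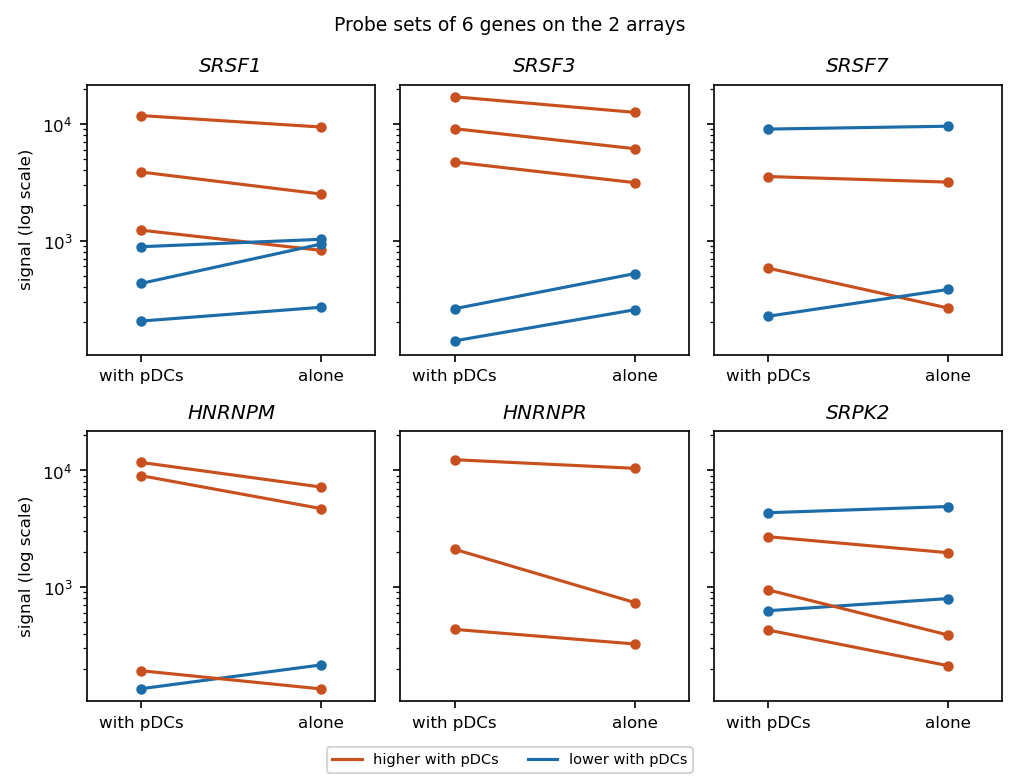
Signal (log scale) of each detected probe set (both signals over the floor) of 6 genes, with pDCs on the left and alone on the right of each panel. Lines join the same probe set and are orange where it was higher with pDCs and blue where it was lower; SRSF3 has 3 orange lines above 2 blue ones, and HNRNPR only orange lines.

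Of the kinases that phosphorylate SR proteins, CLK1 had 1405 with pDCs and 683 alone (2.06-fold) on its sole probe set, and its relative CLK2 had 1211 with pDCs and 937 alone (log2 ratio 0.37). CLK4, of the same family, was lower on both detected probe sets (-0.06 and -0.31). The SRPK kinases act mostly in the cytoplasm, where they let SR proteins enter the nucleus. SRPK1 had 6062 with pDCs and 7823 alone, and 531 with pDCs and 689 alone, which gave nearly the same ratio on both probe sets (-0.37 each). SRPK2 was mixed, with 4344 with pDCs and 4909 alone on its representative probe set (-0.18). Its probe sets at 948 with pDCs and 389 alone, and at 429 with pDCs and 212 alone, were past 2-fold on the higher side (1.28 and 1.01). The kinases thus did not share 1 direction.

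The SF3 and 3' splice site factors had small ratios on their representative probe sets. Without s_at and x_at probe sets, 7 of the 8 genes left were negative, with a median of -0.31. Of these, SF1 and U2AF2 had only bounds (-0.81 and -0.78), from dim probe sets below the floor with pDCs. Of the 8 detected plain probe sets of the family, 3 were higher and 5 lower (median -0.05). SF3B1, the largest SF3B subunit, which holds the branch point helix, was higher on its 2 brightest probe sets (13157 with pDCs and 9720 alone, and 10809 with pDCs and 8723 alone). Its 3 other probe sets were lower, from -0.15 to -0.65, so the gene parted as SRSF1 and SRSF3 did. SF3B3 parted too, with 0.37 and -0.31, and so did SF3A2, with -0.31 and 0.28. SF3A1 ran from -0.17 to 0.12 on 4 probe sets, SF3A3 had -0.08, SF3B4 had -0.17 and SF3B2 had -0.01 and -0.37. The branch point protein SF1 had 4655 with pDCs and 4389 alone (0.08), and another probe set, at 84.6 with pDCs and 203 alone, was at least 1.75-fold lower. U2AF1, which reads the AG at the 3' splice site, had 9008 with pDCs and 9523 alone (-0.08) and 250.4 with pDCs and 164 alone on a dimmer probe set (0.61). U2AF2, which binds the polypyrimidine tract, had 2968 with pDCs and 2498 alone (0.25), with a bound of -0.78 on another probe set. No gene of this group reached 1.5-fold on its representative probe set.

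**Figure D4:**
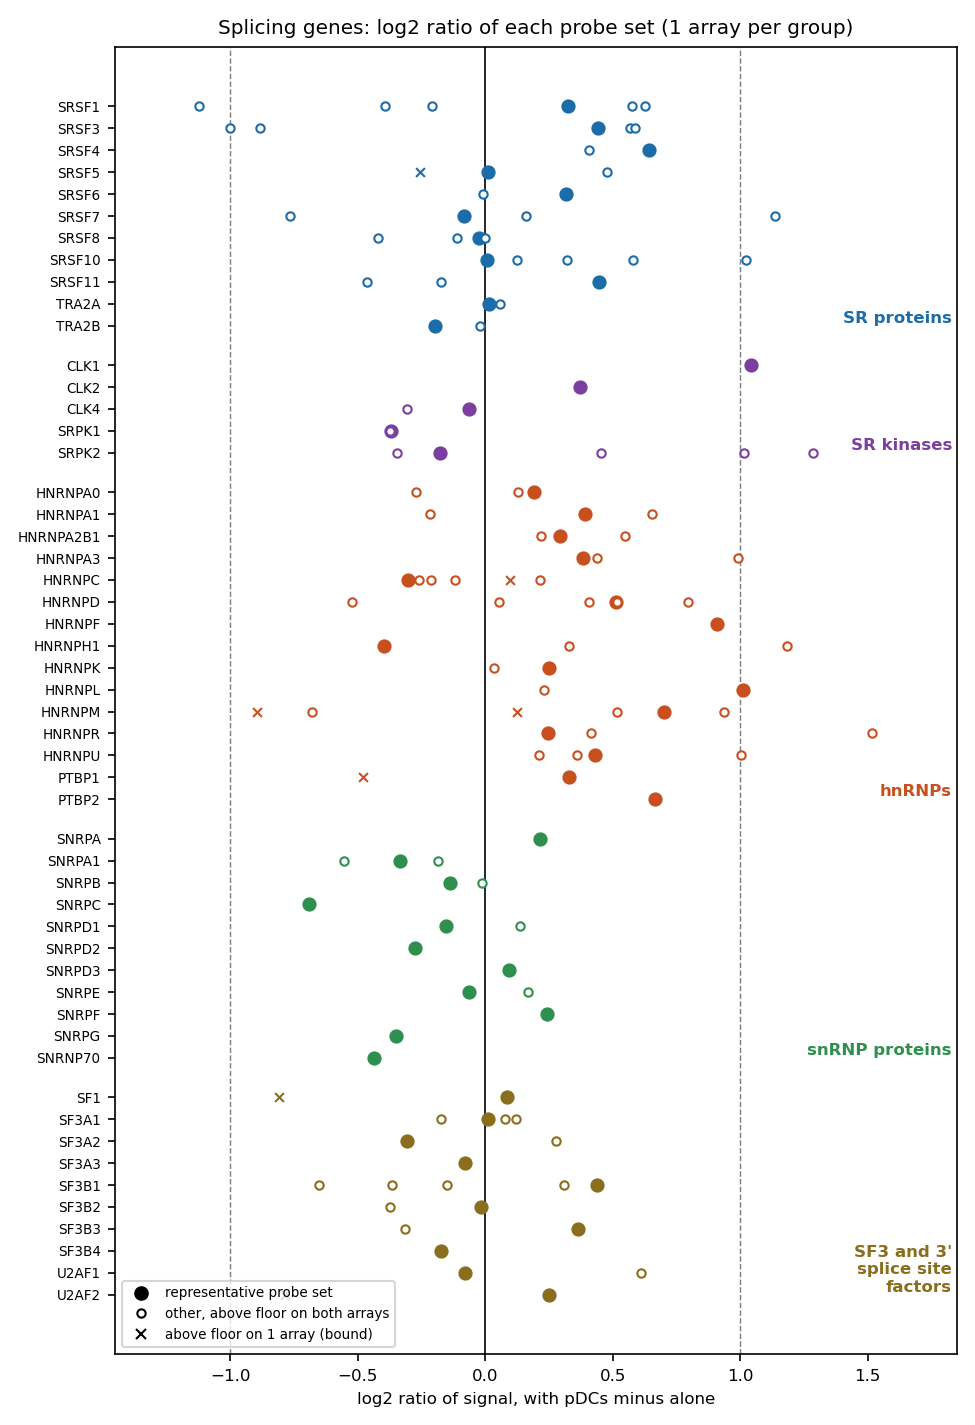
Log2 ratio (with pDCs minus alone, horizontal axis) of each probe set above the floor on at least 1 array, by gene and family. Filled circles are representative probe sets, open circles the others and crosses bounds, with dashed lines at 2-fold; most hnRNP circles lie right of 0, and SRSF1, SRSF3, SRSF7 and HNRNPM have circles well out on both sides.

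Over all families, 17 of the 36 members with 2 or more detected probe sets had the same sign on all of them, 10 higher and 7 lower. This was 47.2%, against 49.0% of the 4844 genes. By number of probe sets, 10 of 16 members with 2 agreed, 4 of 8 with 3, 2 of 5 with 4 and 1 of 7 with 5 or more, against 59.1%, 39.5%, 24.2% and 17.4% of all genes. Agreement in sign was thus near the background.

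Promoter windows are shown for a pair of hnRNP genes higher on all their probe sets and a pair of snRNP genes lower on their sole probe set, chosen after their values were seen. Each runs from 250 bases before to 50 bases after the start listed first for the gene. Windows are in RefSeq build GRCh38.p14, 5' to 3' on the strand of the gene. Other starts of a gene were not used, so a window can lie inside the gene. The SNRPG window appears to hold coding sequence before its listed start, so it may not be the main promoter. This was not tested. Capitals mark the letters CCAAT (the CCAAT box) or CGGAAG (the core bound by ETS factors), or their reverse complements ATTGG and CTTCCG. HNRNPU lies at chr1:244864494-244864793 on the minus strand, HNRNPR at chr1:23344235-23344534 on the minus strand, SNRPC at chr6:34757255-34757554 on the plus strand and SNRPG at chr2:70293409-70293708 on the minus strand.
HNRNPU: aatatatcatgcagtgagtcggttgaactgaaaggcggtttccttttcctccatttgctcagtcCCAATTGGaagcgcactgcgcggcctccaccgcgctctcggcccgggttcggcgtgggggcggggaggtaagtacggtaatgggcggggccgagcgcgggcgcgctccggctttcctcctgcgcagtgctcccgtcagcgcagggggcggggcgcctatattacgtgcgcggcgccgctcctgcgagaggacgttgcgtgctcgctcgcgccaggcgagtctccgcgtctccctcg
HNRNPR: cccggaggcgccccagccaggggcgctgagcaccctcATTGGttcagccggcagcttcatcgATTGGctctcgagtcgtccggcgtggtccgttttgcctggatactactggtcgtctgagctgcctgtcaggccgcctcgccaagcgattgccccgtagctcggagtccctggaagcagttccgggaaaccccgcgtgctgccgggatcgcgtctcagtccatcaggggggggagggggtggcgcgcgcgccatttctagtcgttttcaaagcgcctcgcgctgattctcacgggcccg
SNRPC: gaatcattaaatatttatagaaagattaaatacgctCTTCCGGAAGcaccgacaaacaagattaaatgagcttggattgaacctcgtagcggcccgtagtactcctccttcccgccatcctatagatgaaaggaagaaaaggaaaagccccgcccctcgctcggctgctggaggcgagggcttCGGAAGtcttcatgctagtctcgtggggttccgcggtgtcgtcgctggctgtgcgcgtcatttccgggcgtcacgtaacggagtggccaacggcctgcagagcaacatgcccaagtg
SNRPG: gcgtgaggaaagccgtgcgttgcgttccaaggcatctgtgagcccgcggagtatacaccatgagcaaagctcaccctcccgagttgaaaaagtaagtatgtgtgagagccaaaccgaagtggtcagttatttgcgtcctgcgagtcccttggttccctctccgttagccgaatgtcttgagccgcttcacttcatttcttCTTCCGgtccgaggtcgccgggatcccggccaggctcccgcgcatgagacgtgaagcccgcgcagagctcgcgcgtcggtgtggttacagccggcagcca
In HNRNPU the CCAAT letters stand on both strands and overlap, and HNRNPR has 2 separate matches. SNRPC has 3 matches to the ETS core, of which 2 overlap as a palindrome, and SNRPG has 1. These windows do not stand for their families. The ETS core was also found in 5 of 14 hnRNP windows, and CCAAT in 4 of 10 snRNP windows.

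Of the 53 members, 48 had a promoter window in the RefSeq table, and the first listed per gene was used. The ETS core CGGAAG, on either strand, stood in 24 of 48, against 29.9% of 11530 windows of genes above the floor and 19.9% of all 27305 windows. It stood in 4 of 10 SR protein genes, 2 of 5 kinase genes, 5 of 14 hnRNP genes, 6 of 10 snRNP genes and 7 of 9 SF3 and 3' splice site genes. The letters CCAAT stood in 16 of 48 (33.3%), against 36.6% of windows of genes above the floor. They stood in 2 of 10 SR protein genes, 0 of 5 kinase genes, 9 of 14 hnRNP genes, 4 of 10 snRNP genes and 1 of 9 SF3 and 3' splice site genes. The E-box CACGTG stood in 6 of 48 (12.5%, against 9.67%), the TATA box TATAAA in 5 (10.4%, against 7.02%), and the GC box GGGCGG in 32 (66.7%, against 64.7%). A match describes letters in the window and no binding was measured.

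Wider lists of splicing genes were set beside the members. Of 30 measured hnRNP-like genes outside the members, such as the poly(C)-binding PCBP genes and SYNCRIP, 25 were positive and the median log2 ratio was 0.34. Of 25 other U1, U2 and Sm-like genes, 9 were positive and the median was -0.08. Other SR-related genes had 11 of 18 positive (median 0.02), the U4/U6, U5 and minor snRNP genes 14 of 25 (0.08) and the PRP19 complex and catalytic step genes 16 of 29 (0.10). Snurportin, gemins and other genes of snRNP assembly had 10 of 18 positive (0.10), exon junction and nonsense-mediated decay genes 9 of 12 (0.30), and other splicing RNA-binding proteins 11 of 17 (0.26). Of the 174 genes measured in these lists, 5 (2.87%) were at least 2-fold higher, against 3.17% of all genes. On the lower side were 2 (1.15%), against 4.51%. Above the 75th percentile of mean signal, the shares of all genes were 0.97% and 1.53%. The wider lists were not split by signal, so their shares are not comparable with these.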

How the data were processed

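Biotin-labelled cRNA from total RNA of MM.1S cells was measured on the HG-U133 Plus 2.0 array of Affymetrix, per the labels' protocols, and groups follow the sample titles. The deposited intensity values are linear MAS5 signals, per the submitters' processing notes. No version of MAS5 is named there, and no detection calls were used. From the values, the mean after trimming 2% at each end was 500.1 on both arrays, so a shift shared by most transcripts would be hidden.

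Probe sets were named from the platform annotation (41091 of 54675 with 1 symbol, 41037 of them matched to RefSeq by gene identifier, 0 renamed). The floor is the 50th percentile of each array. A threshold of 2-fold replaced a test, since 1 array per group allows none. The members and lists were chosen with earlier results of these data known. Values are given for members past 2-fold, for the 4 highest and 4 lowest of each family, for members whose probe sets agreed at 0.5 (log2) or more or opposed past 1.5-fold, and for those with no signal. No member met the criterion of agreement at 0.5. The remaining members were given values after these were seen.

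The calculation was checked on simulated data for 19775 genes. Of genes of high signal set 4-fold apart, 100 of 100 raised and 100 of 100 lowered were found. Of 13211 unchanged genes, 7 were called. The size of the simulated noise was chosen and not estimated from these arrays, which have no replicates. The simulation thus checks the code and gives no rate of false calls for the real arrays. Changes as small as most of those described here were not simulated. Alternatives were median centring, quantile normalization, loess (span 0.3), a lower floor (30th percentile), a higher one (70th) or no floor, averaging a gene's probe sets, no s_at or x_at probe sets, and 1.5-fold. Python 3.11.15, numpy 2.4.6, pandas 2.3.3 and statsmodels 0.14.6 were used.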

Additional observations from a re-analysis of the deposited data

How the results depend on the processing

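The hnRNP median stayed between 0.36 and 0.40 (log2) over 8 alternatives, and that of the other hnRNP-like genes between 0.28 and 0.36, in runs added after seeing the data. The snRNP median turned positive without s_at and x_at probe sets (0.12). Under this setting the medians were -0.17 for SR proteins (turned), -0.33 for the kinases and -0.31 for SF3 and 3' splice site genes. SF1 and U2AF2 had only bounds there. The median of all members was -0.015 (turned), with 1 member past 2-fold. Only 2 kinases, CLK4 and SRPK2, kept a value, and 0 kinases were past 2-fold. CLK1 had no value there, since its sole probe set is of the s_at class. SF3 and 3' splice site genes turned to 0.013 with median centring and 0.0058 after loess, SR proteins to -0.0014 after loess, and kinases to 0.37 with the mean over probe sets. The members past 2-fold were 1, with 0 hnRNP genes, under quantile normalization, under loess and when a gene's probe sets were averaged. At 1.5-fold they were 7. Of these, 4 hnRNP genes, 1 SR protein and 1 kinase were higher (6 of 52, or 11.5%, against 11.5% of all genes). The other, an snRNP gene, was lower (1.92%, against 15.3%). Above the 75th percentile of mean signal, 8.44% of all genes were at least 1.5-fold lower, against 2.17% of the members there. All 52 representative probe sets were detected, so a lower floor or none could not change their ratios or the hnRNP median. Of 52 members, 2 changed sign under quantile normalization and 0 under median centring, which moved every ratio by the same small amount. Under the floors tried, 0 changed sign, since each member with a value kept its main ratio. The floors were thus no check of sign. Sign changes were 5 under loess and 9 when probe sets were averaged, and 11 of 39 without s_at and x_at probe sets. The cause of these turns was not tested. Members with the same sign on all probe sets were 17 of 36, and 16, 18 and 13 of 36 under median centring, quantile normalization and loess, 18 of 32 with the 70th percentile floor and 12 of 18 without s_at and x_at probe sets. With the 70th percentile floor, 51 members had a value. No paired analysis was possible because each group has 1 array.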

Other observations

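Among splicing genes outside the members, 7 were past 2-fold. DHX38, the PRP16 helicase of the second catalytic step, had a signal of 788 with pDCs and 225 alone (3.50-fold higher) on its sole probe set above the floor. ALYREF, an mRNA export adaptor, had 3266 with pDCs and 1536 alone (2.13-fold higher), and both of its detected probe sets passed 2-fold. UPF1, the helicase of nonsense-mediated decay, had 796 with pDCs and 248 alone (3.21-fold higher), but its other probe set had a log2 ratio of -0.69. NCBP1, the large subunit of the nuclear cap-binding complex, had 1257 with pDCs and 589 alone, with -0.03 on its other probe set. SRSF12 had 259 with pDCs and 128 alone. U2AF1L4, a U2AF1 paralogue, was lower, with 332 with pDCs and 669.5 alone, and MATR3 was at least 2.61-fold lower on a probe set below the floor with pDCs (91.2 with pDCs and 303 alone).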
